A study of Mus musculus with 20 samples.

Results

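Chronic cold exposure was compared with housing at room temperature in the livers of 20 mice, of which 10 were exposed and 10 were not, with the Sirt2 genotype as a second term of the same model. All 20 liver samples of the series entered this comparison. The exposed mice were the CE group (wild type, 5 mice) and the Sirt2-/-/CE group (knockout, 5 mice), kept at 4 °C for 3 h per day over 3 weeks from 5 weeks of age. The unexposed mice were the Control group (wild type, 5 mice) and the Sirt2-/- group (knockout, 5 mice), housed at about 24 °C. All mice were C57BL/6 and of the same sex within an experiment, and the sex is not given in the sources used here. The knockout was made in fertilized eggs with CRISPR-Cas9 aimed at exons 5 to 7 of Sirt2, so it affects every tissue and not the liver alone. Each mouse gave 1 library of liver messenger RNA, with a total of 35499796 to 53917339 counts per library. The hour at which livers were taken, and whether the mice had eaten, are not given in the sources used here.

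Cold exposure raises the demand for heat, which brown fat meets by burning fatty acids and glucose. The liver supplies fuel for this, since it releases glucose and ketone bodies, packs lipids into lipoproteins, makes acylcarnitines and turns cholesterol into bile acids. A fall of cell temperature induces a small class of RNA-binding proteins, of which Cirbp and Rbm3 are the best known, while heat shock proteins answer protein unfolding. Hormones, meals and the circadian clock also set the level of many liver genes, and the clock is shifted by temperature and feeding.

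Some libraries stood apart from the rest before any group was compared. Sirt2-/- replicate 14 and Sirt2-/-/CE replicate 16 lay at 91.0 and 78.6 on the first principal component (15.6% of the variance), and limma gave them the low sample weights of 0.29 and 0.22. CE replicate 8 lay at -79.9 on the second component (11.3%). Control replicate 3 lay apart on the third component at 71.9 and was high for immediate early and acute-phase genes. Values without these and other single mice are given below for several of the genes and lists that moved most.

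No gene was called changed by cold exposure. The quasi-likelihood test of edgeR on the cold term called 0 of the 15616 genes that passed the filter on low counts, which is 0% (adjusted p under 0.05, two-sided, Benjamini-Hochberg over all genes). The lowest adjusted p was 0.247, shared by 42 genes under 0.25. At an unadjusted p under 0.05 there were 1379 genes, or 8.83% of those tested, with 666 (4.26%) higher and 713 (4.57%) lower in exposed mice. In 0 genes (0%) were all 10 exposed mice on one side of all 10 unexposed mice. DESeq2, another count model, called 60 genes (0.384%), 29 higher and 31 lower, and limma voom with sample quality weights called 5 (0.032%), of which 4 were among the 60. The log2 fold changes below are exposed over unexposed at equal genotype, as fitted by edgeR, and none of them passed its adjusted threshold. Each library came from its own mouse, and no litter, cage or batch is given in the labels, so p-values measure the spread between these mice.

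The size of the differences that the data leave possible can be read from the intervals. Of 10591 genes whose mean reached 1 FPKM (fragments per kilobase of gene length and unit of depth), 9798 (92.5%) had a 95% interval of the cold log2 fold change inside -1 to 1, and 6225 (58.8%) had one inside -0.5 to 0.5. The median half-width of the interval was 0.313 on the log2 scale for these genes. These intervals are not adjusted for the number of genes tested, so a gene's half-width is not its limit of detection. Differences larger than the half-width also went without a call by edgeR, such as that of Tle3 (-0.78, 95% interval -1.08 to -0.48). The intervals are for the cold term over both genotypes and do not bound the effect within a single genotype. Over all genes the median log2 fold change was 0.0073 and 51.2% were positive.

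The targeted gene was checked first. Sirt2 (ENSMUSG00000015149, chromosome 7, 28766735 to 28788661, forward strand, GRCm38), a deacetylase, had 16.9 to 27.5 CPM (counts scaled to the depth of the library) in the knockout mice and 40.2 to 56.2 CPM in the wild-type mice, so the genotypes did not overlap. The knockout mice kept a part of the signal (22.0 ± 5.01 CPM in Sirt2-/-, 42.3 ± 1.30 CPM in Control, SD, n = 5), and counts over the whole gene cannot show the deleted exons. Its cold log2 fold change was 0.06 (95% interval -0.16 to 0.27, edgeR adjusted p = 0.921). Exposed mice spanned 19 to 56.2 CPM and unexposed mice 16.9 to 44.5 CPM.

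Among genes that were lower in exposed mice, Tle3 had the lowest p-value. Tle3 (ENSMUSG00000032280, chromosome 9, 61372366 to 61418497, forward strand) encodes a co-repressor of the Groucho family that acts in adipocyte and Wnt target gene control. The Control mice had 18.2, 16.2, 15.4, 11.7 and 11.9 CPM and the CE mice 10.8, 10.4, 6.99, 6.03 and 8.96 CPM. Sirt2-/- mice had 11.2, 14.2, 14.6, 15.8 and 18.6 CPM, and Sirt2-/-/CE mice had 7.03, 10.1, 12.3, 6.86 and 6.48 CPM. All CE mice lay below all Control mice, while 1 Sirt2-/-/CE mouse at 12.3 CPM lay above 1 Sirt2-/- mouse at 11.2 CPM. The cold log2 fold change was -0.78 (standard error 0.14, edgeR adjusted p = 0.247, DESeq2 adjusted p = 0.0021, limma voom adjusted p = 0.0855), with all 10 exposed mice below the unexposed mean of their genotype. It was alike in size in wild type (-0.77) and knockout (-0.80). The leading genes in each direction were picked for a low p-value and the same sign in both genotypes. Like values in the genotypes, and all exposed mice on one side, follow in part from that choice. Counts of mice above or below the unexposed mean of their genotype compare log2 CPM with the mean log2 CPM of that group.

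3110082I17Rik (ENSMUSG00000053553, chromosome 5, 139359739 to 139460527, reverse strand) was lower too, but unevenly between the genotypes. Unexposed mice had 2.82 to 14.4 CPM with a median of 6.69, and exposed mice had 1.78 to 3.77 CPM with a median of 3.06. The whole exposed range sits below the 6.84 CPM of the lowest Control mouse but overlaps the Sirt2-/- mice, which had 2.82 to 6.55 CPM. Its cold log2 fold change was -1.13 (standard error 0.23, edgeR adjusted p = 0.247, DESeq2 adjusted p = 0.0022, limma voom adjusted p = 0.039). In wild type it was -1.76 and in knockout -0.50, a difference with an unadjusted p of 0.0022 and an edgeR adjusted p of 0.375. Of the 2885 exon bases of 3110082I17Rik, 361 lie opposite C130050O18Rik, and the sources used here do not say if strand was used in counting.

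Hnrnpd (ENSMUSG00000000568, chromosome 5, 99955935 to 99978938, reverse strand), which encodes the AU-rich element binding protein AUF1, had 18.5 to 43.8 CPM in unexposed mice (median 30.0) and 16.5 to 29.6 CPM in exposed mice (median 19.7). Its log2 fold change was -0.65 (standard error 0.14, edgeR adjusted p = 0.247, DESeq2 0.0168, limma voom 0.132) and had the same value of -0.65 in each genotype, with all 10 exposed mice below the mean of their unexposed group. Hnrnpdl, the paralog next to Hnrnpd on chromosome 5, and Khdrbs1, a splicing regulator also called Sam68, were picked with their values known. Hnrnpdl had a log2 fold change of -0.42 (standard error 0.11) and Khdrbs1 one of -0.43 (standard error 0.11), both with an edgeR adjusted p of 0.247 and with 10 of 10 exposed mice below the unexposed mean of their genotype. The adjusted p of Hnrnpdl was 0.0493 by DESeq2 and 0.143 by limma voom, and that of Khdrbs1 was 0.0462 and 0.193.

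Cirbp (ENSMUSG00000045193, chromosome 10, 80165985 to 80172786, forward strand), the cold-inducible RNA-binding protein, was on the lower side as well. Unexposed mice had 4.08 to 18.2 CPM with a median of 10.7, and exposed mice had 3.13 to 9.67 CPM with a median of 5.01. Its log2 fold change was -0.85 (standard error 0.23, edgeR adjusted p = 0.321), -0.99 in wild type and -0.70 in knockout. The groups overlap, since 5 unexposed mice, at 4.08, 6.55, 6.99, 7.41 and 9.34 CPM, lay inside the exposed range. Rbm3 (ENSMUSG00000031167, chromosome X, 8138975 to 8145880, reverse strand) had 27.4 to 79.7 CPM without cold (median 38.4) and 12.2 to 47.1 CPM with it (median 30.8). The value for Rbm3 was -0.50 (standard error 0.23, edgeR adjusted p = 0.548), and it came from the wild type, with -0.99 there and -0.01 in knockout (unadjusted p of the difference 0.0295, edgeR adjusted p = 0.535). A stretch of 465 bases of Rbm3 is matched at 95% identity or more by 2 pseudogenes, which had means of 0.788 and 0.255 CPM. It also matches Phospho2, with a mean of 19.7 CPM, over 380 bases, and how reads that match both were counted is not stated.

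Acsm5, a medium-chain acyl-CoA synthetase of liver mitochondria (ENSMUSG00000030972, chromosome 7, 119519463 to 119545551, forward strand), had 75.9 to 173 CPM in unexposed mice and 73.9 to 97.7 CPM in exposed mice. The exposed mice were close together, with a median of 94.4 CPM, while the Control mice had 131 to 173 CPM and the Sirt2-/- mice 75.9 to 146 CPM. Its log2 fold change was -0.52 (standard error 0.12, edgeR adjusted p = 0.247, DESeq2 0.0202, limma voom 0.0404). It was -0.79 in wild type and -0.26 in knockout (unadjusted p of the difference 0.0167, edgeR adjusted p = 0.491).

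Dexi led the genes that were higher in exposed mice. Dexi (ENSMUSG00000038055, chromosome 16, 10502531 to 10543054, reverse strand), a small gene beside Ciita, had 7.94, 7.27, 4.84, 12.7 and 10.4 CPM in Control mice and 13.9, 23.0, 13.2, 13.8 and 12 CPM in CE mice. In Sirt2-/- mice it had 6.86, 7.87, 8.56, 12.1 and 8.84 CPM, and in Sirt2-/-/CE mice 22.1, 14.1, 14.5, 12.1 and 15.7 CPM. Only the lowest exposed mice, at 12 and 12.1 CPM, overlapped the highest unexposed mice. The log2 fold change was 0.82 (standard error 0.17, edgeR adjusted p = 0.247, DESeq2 adjusted p = 0.0051, limma voom adjusted p = 0.0391), and it was 0.82 in wild type and 0.83 in knockout. Dexi shares 329 of 3353 exon bases with Ciita on the other strand.

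Another 4 genes with low p-values are known for membrane traffic, chromosome segregation or oxygen sensing. Wdr91 (ENSMUSG00000058486, chromosome 6), which acts on endosome maturation, had a median of 9.25 CPM in unexposed mice (5.4 to 12.1) and 15.8 CPM in exposed mice (9.26 to 19.4), with a log2 fold change of 0.68 (standard error 0.15, edgeR adjusted p = 0.247, limma voom adjusted p = 0.0192). Zw10 (ENSMUSG00000032264, chromosome 9), a kinetochore and Golgi traffic protein, had 8.08 to 13.7 CPM without cold and 12.5 to 19.6 CPM with it, a log2 fold change of 0.47 (standard error 0.10). Vhl (ENSMUSG00000033933, chromosome 6), the ubiquitin ligase subunit that marks hypoxia-inducible factors for breakdown, had 5.85 to 12.1 CPM and 10.3 to 16.1 CPM, with a log2 fold change of 0.50 (standard error 0.11). Stx2 (ENSMUSG00000029428, chromosome 5), a membrane fusion protein, had 6.34 to 11.9 CPM and 9.25 to 15.6 CPM, with a log2 fold change of 0.44 (standard error 0.10). The 10 exposed mice were above the unexposed mean of their genotype for Zw10 and Stx2, and 9 of 10 were for Wdr91 and Vhl. Each of these 4 genes had an edgeR adjusted p of 0.247, and DESeq2 gave 0.0107 to 0.0186 for them. The limma voom adjusted p was 0.0899 for Zw10, 0.0905 for Vhl and 0.0621 for Stx2.

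**Figure D1:**
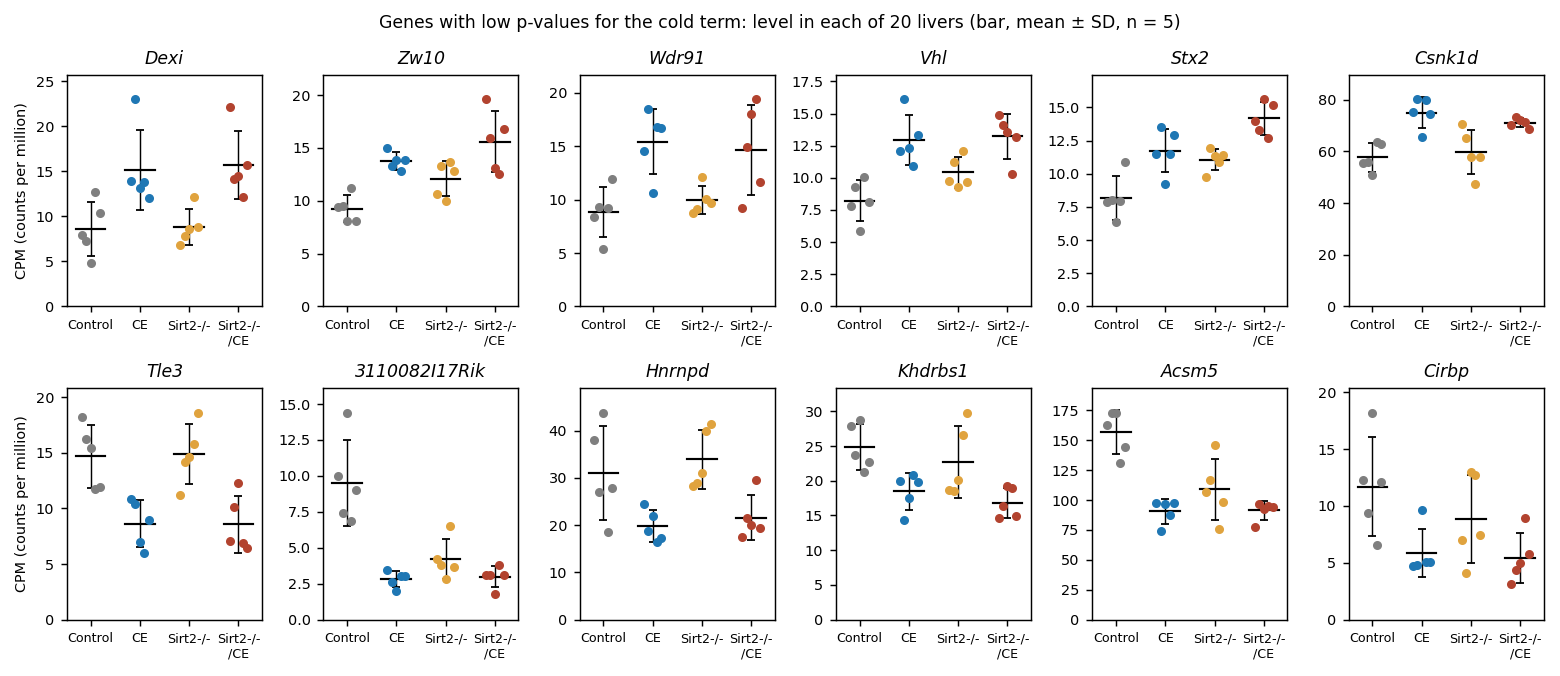
CPM of genes with low p-values for the cold term, and of Cirbp, in each mouse (points) by group, with the mean and SD (n = 5). The upper row holds genes that were higher and the lower row genes that were lower in CE and Sirt2-/-/CE than in Control and Sirt2-/-. For Tle3 the difference was alike in both genotypes, while for 3110082I17Rik and Acsm5 it was wider in wild type. Most of these genes were picked for a low p-value and the same sign in both genotypes.

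The additive model assumes 1 cold effect for both genotypes, so the effect was also fitted in each genotype, from groups that share no mouse. Across the 15616 genes the log2 fold changes of the 2 genotypes had a Pearson r of 0.0144 and a Spearman rho of 0.0306, and 51.4% had the same sign. These are values across genes, which are not independent replicates. Among 10591 genes of at least 1 FPKM, r was -0.113, rho was 0.0108 and the share of equal sign was 51.0%. At an unadjusted p under 0.05 there were 1674 genes (10.7%) in wild type and 1132 (7.25%) in knockout, and 150 were in both, which is 8.96% of the wild-type list and 13.3% of the knockout list. Of these 150 genes, 90 had the same sign and 60 opposite signs. The spread of the log2 fold changes was of like size in wild type (SD 0.558) and knockout (SD 0.493). Cold exposure and genotype did not interact past the threshold in any gene of the edgeR test (0 genes, 0%, lowest adjusted p = 0.208), with 1303 genes (8.34%) at an unadjusted p under 0.05, and DESeq2 called 41 (0.263%).

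**Figure D2:**
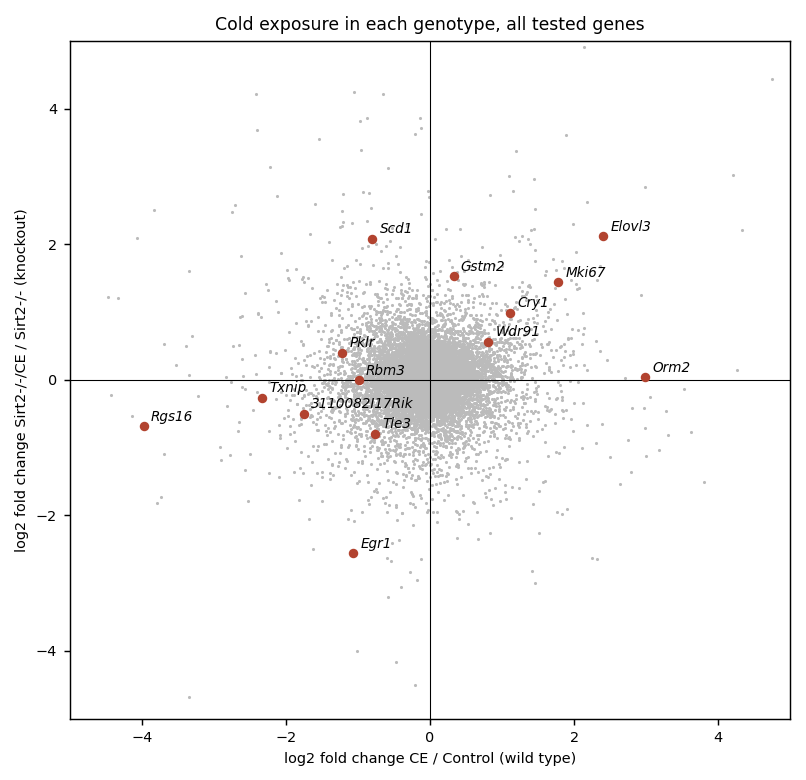
Log2 fold change of CE over Control (horizontal) against Sirt2-/-/CE over Sirt2-/- (vertical) for all tested genes (grey), with some named genes in red; 10 genes lie outside the axes. The cloud shows no tilt (Pearson r 0.0144), and Scd1 and Pklr lie on opposite sides of 0 in the 2 genotypes.

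Several metabolic genes had opposite values in the 2 genotypes, which the additive term averages out. Scd1, the desaturase that makes oleate, had 119 to 10100 CPM in unexposed mice (median 2010) and 1080 to 6470 CPM in exposed mice (median 3260). Its cold log2 fold change was 0.64 (standard error 0.54, edgeR adjusted p = 0.786, and 0.38 without Sirt2-/- replicate 14), made of -0.80 in wild type and 2.08 in knockout (unadjusted p of the difference 0.0013, edgeR adjusted p = 0.342). Pklr, the pyruvate kinase of liver, had a value of -0.41 (standard error 0.30, edgeR adjusted p = 0.725), from -1.22 in wild type and 0.40 in knockout (unadjusted p of the difference 0.0022), and 711 of its 3236 exon bases lie opposite Hcn3. The cold value of Pklr was -0.27 without Control replicate 2 and -0.65 without Sirt2-/-/CE replicate 20. G6pc, which releases free glucose, had -0.05 (standard error 0.44), from -0.88 and 0.78 (unadjusted p of the difference 0.0499, edgeR adjusted p = 0.598). Pck1, an enzyme of gluconeogenesis, had the same sign in both genotypes (0.41 in wild type, 0.07 in knockout) and a cold value of 0.24 (standard error 0.40), with 188 to 4460 CPM in unexposed and 1260 to 6050 CPM in exposed mice. Without CE replicate 8 the value of Pck1 was 0.04, and without Sirt2-/- replicate 11 it was 0.43. With the clock score described below as covariate it was 0.93.

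Other genes that are often followed in the cold had values near 0 or wide intervals. Fgf21, a hormone that liver and fat release, was low in both conditions, at 0 to 0.656 CPM without cold and 0 to 1.27 CPM with it. Ppargc1a, a coactivator of mitochondrial genes, had a log2 fold change of 0.38 (95% interval -0.42 to 1.17), which was 0.90 without Sirt2-/- replicate 11 and 0.22 without CE replicate 8. Cpt1a, which carries fatty acids into mitochondria, had -0.19 (-0.65 to 0.28), and -0.08 without Sirt2-/- replicate 13 and -0.29 without Sirt2-/- replicate 15. Cyp7a1, the rate-limiting enzyme of bile acid synthesis, had -0.15 (-1.05 to 0.75), and Cyp7b1 of the alternative pathway had -0.13 (-0.99 to 0.74). Dio1, which activates thyroid hormone, had 9.35 to 186 CPM without cold (median 126) and 127 to 243 CPM with it (median 160). The value of Dio1 was 0.59 (-0.02 to 1.21, edgeR adjusted p = 0.578), and all 10 exposed mice lay above the unexposed mean of their genotype. Control replicate 3 was the mouse at 9.35 CPM, and without it the value of Dio1 was 0.44. Pkm, which holds the M1 and M2 isoforms of pyruvate kinase counted together and of whose 5001 exon bases 767 also belong to Gm49759, had 12.6 to 38.7 CPM without cold and 6.51 to 161 CPM with it. The 161 CPM came from CE replicate 6, and the log2 fold change of Pkm was 0.62 with that mouse and -0.21 without it.

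The 27 gene lists, with 729 different genes tested, were described by counts and medians. Of these genes 58, or 7.96%, had an unadjusted p under 0.05 beside 8.83% of all genes, and 0 passed the adjusted threshold of edgeR. Immediate early genes had the lowest median and cell cycle genes the highest with all mice, beside a median of 0.0073 over all genes. Without CE replicate 6 the cell cycle median was 0.15, so this rank rests on that mouse. The median of heat shock and cold-inducible genes was at least 0.21 over the removal of single mice. Unless they carry the lowest p-values of their list, the members named below were picked after their values were seen. A count with nearly all exposed mice on one side follows in part from either choice. The share of all genes with such a count is not given here.

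**Figure D3:**
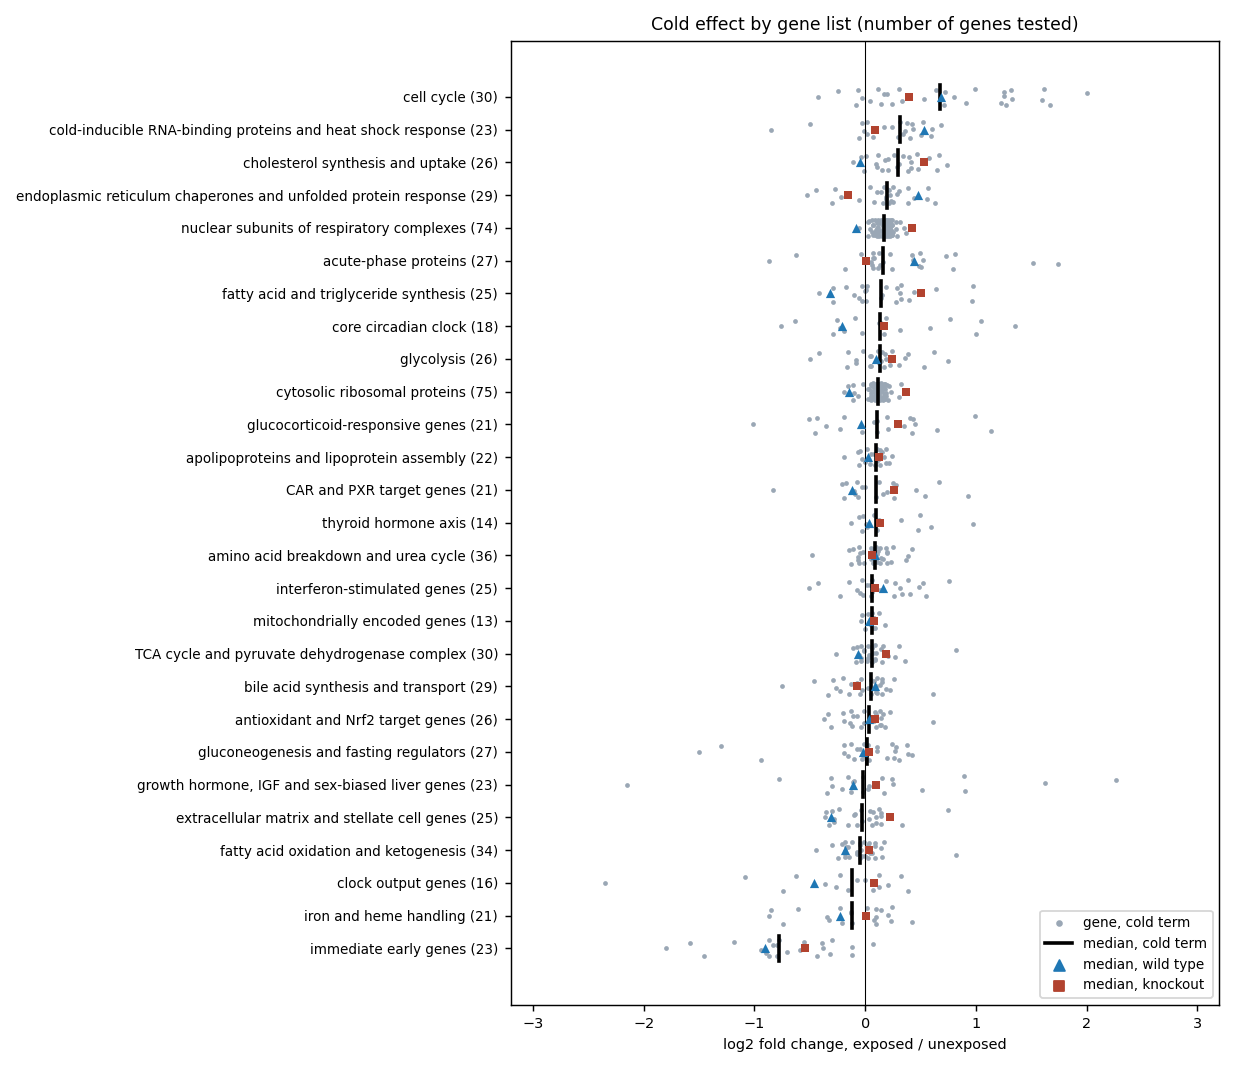
Cold log2 fold change of each tested gene (points) by list, with the list's median for the cold term (bar), in wild type (triangle) and in knockout (square). Most immediate early genes lie on the left of 0 and most cell cycle genes on the right. For cholesterol synthesis, respiratory subunits and ribosomal proteins the knockout median lies right of 0 and the wild-type median left of it, and for endoplasmic reticulum chaperones the order is turned.

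Immediate early genes, transcription factors and regulators that answer growth factors, stress or handling within minutes, were lower in 22 of 23 cases, with a median log2 fold change of -0.78 (wild type -0.91, knockout -0.54). In 6 of 23 (26.1%) the unadjusted p was under 0.05, all lower, beside 4.57% of all genes. Klf10, a Krüppel-like factor, had 8.66 to 99.1 CPM in unexposed mice (median 15.7) and 7.75 to 16.9 CPM in exposed mice (median 9.60), a value of -1.19 (standard error 0.32, edgeR adjusted p = 0.3, DESeq2 adjusted p = 0.035, limma voom adjusted p = 0.155). Klf4 had -1.45 (standard error 0.47) on a low level of 0.496 to 4.86 CPM without cold. Egr1 had 0.949 to 27.7 CPM without cold and 0.792 to 11.5 CPM with it (-1.80, standard error 0.64, and -1.19 without Sirt2-/- replicate 14), Fos had 0.425 to 7.62 and 0.296 to 2.35 CPM (-1.58, standard error 0.54, and -1.04 without Sirt2-/- replicate 13), and Jun had 9.07 to 104 and 7.41 to 32.8 CPM (-0.87, standard error 0.38, and -0.39 without Control replicate 3). The ranges overlap in each of these genes, and the unexposed mice spread widest. Control replicate 3 had the highest Klf10, Fos and Jun of all mice, and without it the median of the list was -0.26.

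Cell cycle genes were higher in 25 of 30 cases, with a median of 0.68 (wild type 0.69, knockout 0.40), and 10 (33.3%) had an unadjusted p under 0.05, all higher, beside 4.26% of all genes. Those 10 were Aurka, Plk1, Mki67, Birc5, Ccna2, Ccnb2, Ccnb1, Top2a, Cdc20 and Foxm1. Aurka (ENSMUSG00000027496, chromosome 2), a kinase of the mitotic spindle, had 1.02 to 2.33 CPM in unexposed mice and 1.72 to 6.30 CPM in exposed mice, with a log2 fold change of 0.80 (standard error 0.22, edgeR adjusted p = 0.321) and 10 of 10 exposed mice above in log2 CPM. Plk1 (ENSMUSG00000030867, chromosome 7), a second mitotic kinase, had 0 to 0.715 CPM and 0.113 to 3.19 CPM, with a value of 1.67 (standard error 0.56, edgeR adjusted p = 0.377).

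The proliferation marker Mki67 shows how the exposed mice were spread. Control mice had 1.15 to 3.18 CPM of Mki67, and CE mice had 23.0, 1.21, 0.170, 8.18 and 2.57 CPM. In Sirt2-/- mice it was 0.150 to 1.27 CPM and in Sirt2-/-/CE mice 1.27 to 3.31 CPM. CE replicates 6 and 9 thus lay far above the rest, and the lowest levels were those of CE replicate 8 and Sirt2-/- replicates 14 and 15. Without CE replicate 6 the log2 fold change of Mki67 was 1.02 in place of 1.61, and the median of the list was 0.15 in place of 0.68.

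The promoters of 5 of these genes are shown because genes of mitosis are known to share a CCAAT box, the site of the factor NF-Y. The genes were picked with their values known. Each line gives the 150 bases before the RefSeq start site on GRCm38.p6, read 5′ to 3′ on the strand of the gene, with the letters CCAAT or TTTGAA (the cell cycle gene homology region) and their reverse complements in capitals. The windows are chr2:172370571-172370720 (Aurka), chr7:122159285-122159434 (Plk1), chr13:100786487-100786636 (Ccnb1), chr9:70421555-70421704 (Ccnb2) and chr4:118437344-118437493 (Cdc20).
Aurka: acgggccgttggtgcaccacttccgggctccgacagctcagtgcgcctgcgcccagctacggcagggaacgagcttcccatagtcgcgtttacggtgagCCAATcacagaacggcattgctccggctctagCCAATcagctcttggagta
Plk1: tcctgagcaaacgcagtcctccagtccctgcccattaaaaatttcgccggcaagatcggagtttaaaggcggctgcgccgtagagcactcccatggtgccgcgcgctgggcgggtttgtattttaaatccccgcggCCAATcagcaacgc
Ccnb1: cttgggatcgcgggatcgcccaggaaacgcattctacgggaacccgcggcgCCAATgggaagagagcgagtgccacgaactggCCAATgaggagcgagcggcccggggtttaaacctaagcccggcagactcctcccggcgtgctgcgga
Ccnb2: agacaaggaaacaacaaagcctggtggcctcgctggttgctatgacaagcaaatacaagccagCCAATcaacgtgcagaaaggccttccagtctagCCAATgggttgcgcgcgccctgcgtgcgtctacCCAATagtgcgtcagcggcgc
Cdc20: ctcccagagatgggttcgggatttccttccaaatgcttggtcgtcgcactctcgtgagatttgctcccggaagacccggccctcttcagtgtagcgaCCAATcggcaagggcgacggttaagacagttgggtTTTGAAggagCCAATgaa
All 5 windows hold CCAAT, from 1 copy in Plk1 to 3 in Ccnb2, and 24.5% of 32851 promoter windows of the same length hold it on either strand. Cdc20 alone also holds TTTGAA, which 9.07% of the windows hold. Other forms of the cell cycle gene homology region were not searched for. A match of letters is a description of the sequence and not a bound site.

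**Figure D4:**
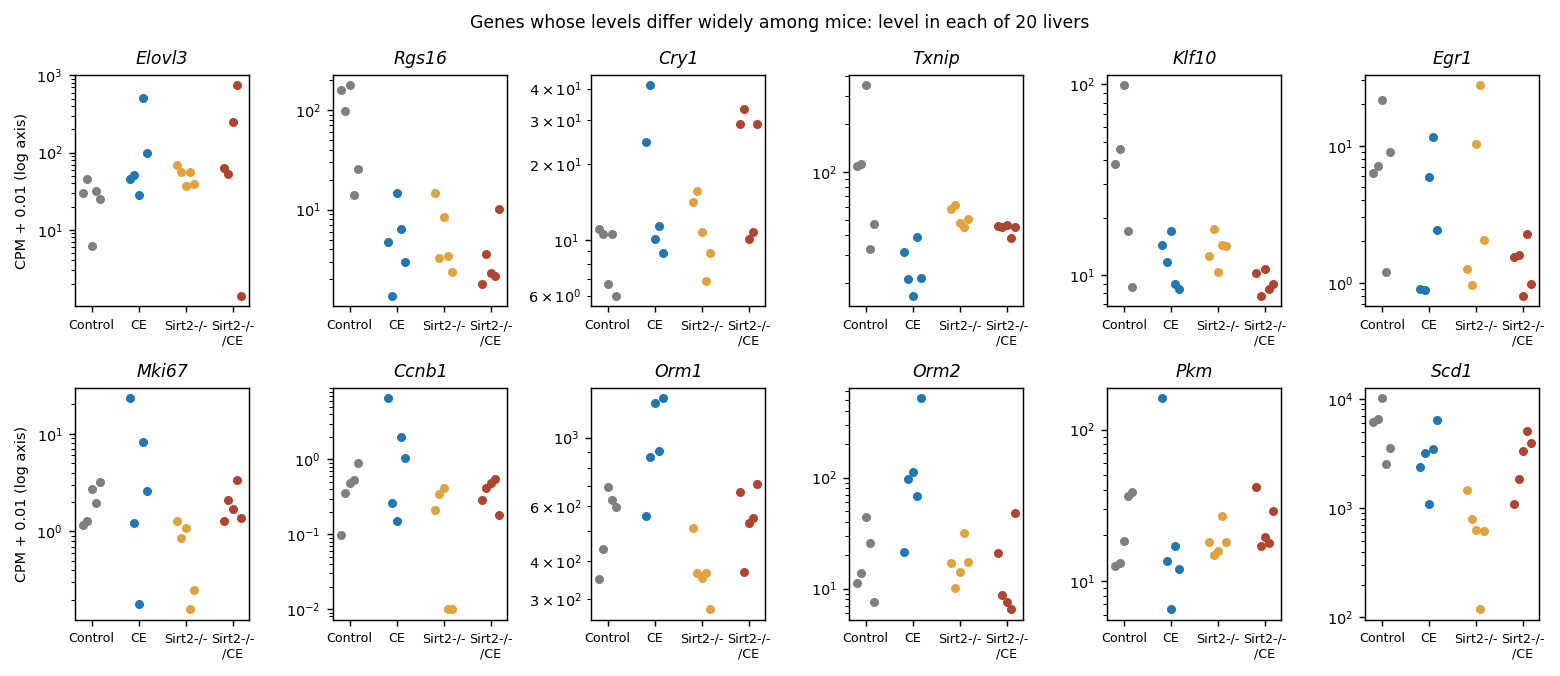
CPM (log axis, with 0.01 added) of genes whose level differs widely among mice, 1 point per mouse by group. Single mice stand out, such as CE replicate 6 for Mki67, Ccnb1 and Pkm and Control replicate 3 for Txnip and Klf10, while Cry1 and Elovl3 are high in some exposed mice of each genotype.

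Of the core clock genes 10 of 18 were higher in exposed mice, with a median of 0.14 (-0.02 without Sirt2-/-/CE replicate 17, and 0.40 with a clock score as covariate that is built in part from these genes). In 3 of 18 (Csnk1d, Cry1 and Clock), or 16.7%, the unadjusted p was under 0.05, beside 8.83% of all genes. Cry1 (ENSMUSG00000020038, chromosome 10), a repressor of the clock, had 5.98 to 15.7 CPM in unexposed mice (median 10.5) and 8.90 to 41.3 CPM in exposed mice (median 18). The log2 fold change of Cry1 was 1.05 (standard error 0.29, edgeR adjusted p = 0.32, DESeq2 adjusted p = 0.0493, limma voom adjusted p = 0.4), with 1.11 in wild type and 0.99 in knockout. The exposed mice fell into 5 at or below 11.4 CPM and 5 at or above 24.5 CPM, on both genotypes. Csnk1d (ENSMUSG00000025162, chromosome 11), the kinase that marks PER proteins, had a small and even difference, with 47.5 to 70.4 CPM and 65.4 to 80.1 CPM, a value of 0.32 (standard error 0.08, edgeR adjusted p = 0.247, DESeq2 0.0234, limma voom 0.0905) and 10 of 10 exposed mice above. Clock, an activator, had 0.77 (standard error 0.32), from 1.31 in wild type and 0.22 in knockout. Its partner Arntl had 1.36 (standard error 0.76), from 3.06 in wild type and -0.25 in knockout.

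Clock output genes had 6 of 16 higher and a median of -0.12, which was -0.03 without Sirt2-/- replicate 11, -0.24 without Sirt2-/-/CE replicate 17 and 0.19 with the clock score described next as covariate. Rgs16 (chromosome 1), a regulator of G-protein signalling that follows feeding time in liver, had 2.37 to 178 CPM in unexposed mice and 1.35 to 14.7 CPM in exposed mice. Its value of -2.35 (standard error 0.70, edgeR adjusted p = 0.359, DESeq2 0.0462, limma voom 0.0855) came from -3.97 in wild type and -0.69 in knockout. Alas1, the first enzyme of heme synthesis, had -0.75 (standard error 0.40). A clock score was computed for each mouse, as the difference in mean centred log2 CPM between one arm of the clock (Ciart, Dbp, Nr1d2, Per3 and Tef) and the other (Arntl, Clock and Npas2). It was 1.33 to 3.36 in Control, -4.52 to 2.42 in CE, -6.48 to 2.17 in Sirt2-/- and -4.69 to 0.87 in Sirt2-/-/CE mice. Scores below -4 were found in CE replicate 9, Sirt2-/- replicates 14 and 15 and Sirt2-/-/CE replicate 19. The median was -0.01 over the 10 exposed and 1.96 over the 10 unexposed mice, with 3.13 in Control, 0.38 in CE, 0.58 in Sirt2-/- and -0.1 in Sirt2-/-/CE. The part of this in the differences was not tested beyond a fit with the score as a covariate, in which 0 genes were called and 1800 had an unadjusted p under 0.05.

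Elovl3 (ENSMUSG00000038754, chromosome 19), a fatty acid elongase that is cold-inducible in brown fat and rhythmic and male-biased in liver, had 6.14 to 69.5 CPM in unexposed mice and 1.38 to 751 CPM in exposed mice. The high values were those of Sirt2-/-/CE replicate 19 (751 CPM), CE replicate 9 (509 CPM) and Sirt2-/-/CE replicate 18 (251 CPM), and the lowest was that of Sirt2-/-/CE replicate 20 (1.38 CPM). For Elovl3 the log2 fold change was 2.26 (standard error 0.68, edgeR adjusted p = 0.359), and it was 1.00 with the clock score as covariate and 1.61 without CE replicate 9. Of the growth hormone, IGF and sex-biased genes that it was listed with, 11 of 23 were higher, with a median of -0.01 (-0.14 without Sirt2-/- replicate 15 and 0.04 without Control replicate 4). Stat5a, the transducer of growth hormone signals, had 0.51 (standard error 0.16, 9 of 10 mice above), and 440 of its bases match Stat5b, with a mean of 42.9 CPM, at 96.4% identity.

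Heat shock and cold-inducible genes were higher in 18 of 23 cases with a median of 0.31 (0.21 without CE replicate 7), and the members that were lower included the cold-inducible Cirbp and Rbm3. Lower members besides these were Dnajb4 (-0.05), Cryab (-0.03) and Bag3 (-0.01). Ahsa1, the activator of Hsp90, had 48.0 to 115 CPM without cold and 64.0 to 181 CPM with it (0.35, standard error 0.16, edgeR adjusted p = 0.547). Hsp90ab1 had 0.38 (standard error 0.18) and Hspa1b 0.68. The median was 0.53 in wild type and 0.09 in knockout. Sirt2-/-/CE replicate 16 had the highest Ahsa1, at 181 CPM, and without it the value of Ahsa1 was 0.23.

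Endoplasmic reticulum chaperones and unfolded protein response genes were higher in 23 of 29 cases with a median of 0.19, which split into 0.48 in wild type and -0.16 in knockout. Pdia6, a disulfide isomerase, had 146 to 381 CPM in unexposed mice and 273 to 416 CPM in exposed mice (0.39, standard error 0.15, 10 of 10 mice above in log2 CPM, edgeR adjusted p = 0.456). Xbp1, the transcription factor of this response, had the opposite sign at -0.52 (standard error 0.18, edgeR adjusted p = 0.389), with 153 to 464 and 143 to 226 CPM. Per mouse, the mean of the list was -0.50 to -0.18 in Control and -0.05 to 0.28 in CE, with no overlap, while Sirt2-/- mice spanned -0.38 to 0.55 and Sirt2-/-/CE mice -0.17 to 0.30 (centred log2 CPM).

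Acute-phase proteins, which the liver secretes in inflammation, were higher in 23 of 27 cases with a median of 0.16 (wild type 0.44, knockout 0.01), which was 0.37 without Control replicate 3 and 0.07 without CE replicate 8. In 5 (18.5%) the unadjusted p was under 0.05, all higher, beside 4.26% of all genes. Orm1 (ENSMUSG00000039196, chromosome 4, 63344560 to 63348163, forward strand), which encodes alpha-1-acid glycoprotein, had 279 to 691 CPM in unexposed mice (median 401) and 368 to 1340 CPM in exposed mice (median 688). Its log2 fold change was 0.73 (standard error 0.17, edgeR adjusted p = 0.247, DESeq2 adjusted p = 0.0202, limma voom adjusted p = 0.132), with 0.88 in wild type, 0.59 in knockout and 10 of 10 exposed mice above in log2 CPM. Crp, C-reactive protein, had 229 to 407 and 248 to 576 CPM (0.49, standard error 0.14, edgeR adjusted p = 0.357), with 0.83 in wild type and 0.15 in knockout. Orm2, beside Orm1, had 1.52 (standard error 0.65), from 2.99 in wild type and 0.03 in knockout (unadjusted p of the difference 0.0074, edgeR adjusted p = 0.45), with CE replicate 10 at 516 CPM and a value of 0.92 without that mouse. Saa4 had 0.80 (standard error 0.27). Control replicate 3 had the highest mean of the list (1.39), followed by CE replicates 8 (1.39) and 10 (1.22).

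**Figure D5:**
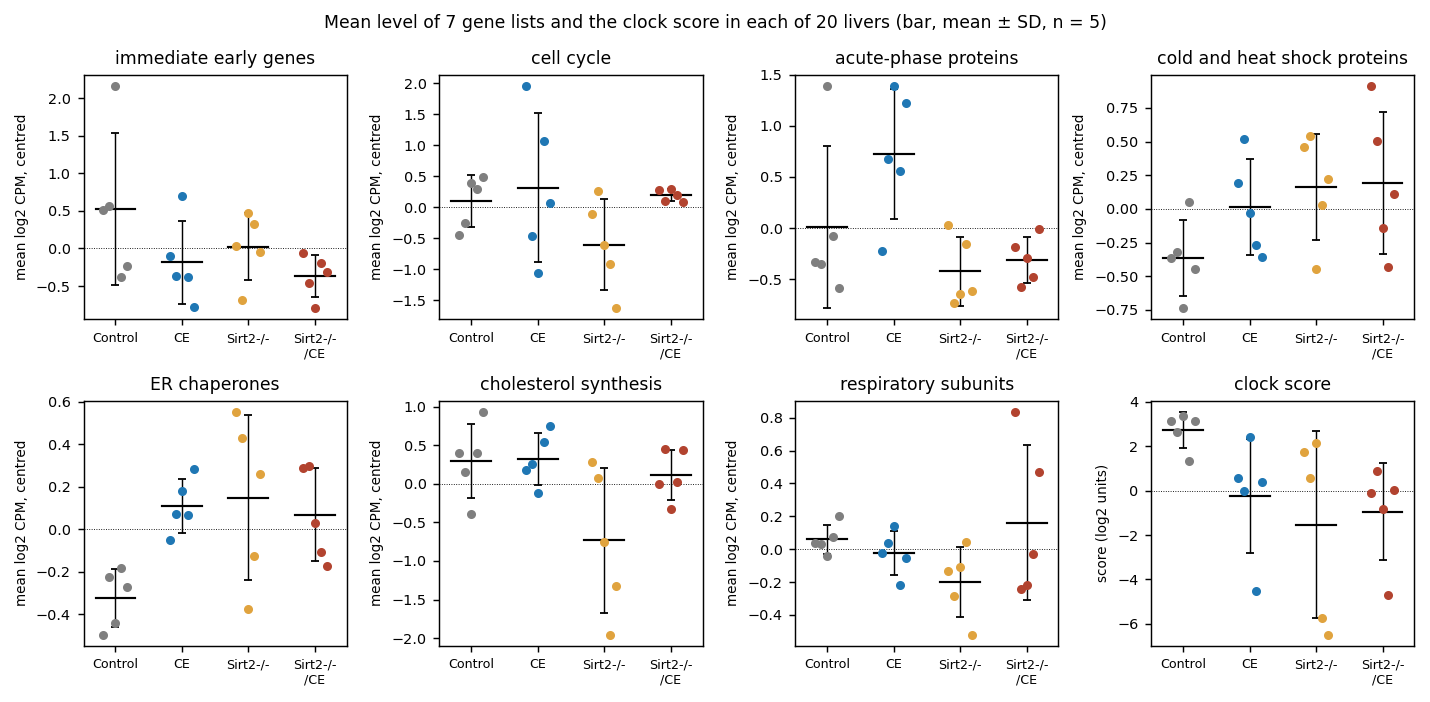
Mean centred log2 CPM of 7 gene lists and the clock score in each mouse (points) by group, with mean and SD (n = 5). Control and CE mice do not overlap for endoplasmic reticulum chaperones, Control replicate 3 stands highest for immediate early genes, and 2 Sirt2-/- mice have the lowest clock scores.

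Lipid lists had their positive medians from the knockout mice. Cholesterol synthesis and uptake genes were higher in 23 of 26 cases with a median of 0.30, which was -0.05 in wild type and 0.54 in knockout. Ebp, a sterol isomerase, had 105 to 207 CPM without cold and 144 to 297 CPM with it (0.34, standard error 0.13, edgeR adjusted p = 0.453, 10 of 10 mice above). Tm7sf2, a sterol reductase, had 0.53 (standard error 0.20), and shares 532 of 4403 exon bases with Vps51 on the same strand. The list mean per mouse was lowest in Sirt2-/- replicates 14 (-1.95) and 15 (-1.32), both with low clock scores, and the median was 0.21 without replicate 14 and 0.49 with the clock score as covariate. The mean was highest in Control replicate 5 (0.93). Fatty acid and triglyceride synthesis had 16 of 25 higher, a median of 0.14, and -0.32 in wild type against 0.51 in knockout, and the median was -0.03 without Sirt2-/-/CE replicate 20. Me1, malic enzyme, had 0.33 (standard error 0.15), with 0.03 in wild type and 0.62 in knockout, and Fads1, a desaturase, had 0.40 (standard error 0.22).

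Fatty acid oxidation and ketogenesis genes were higher in 14 of 34 cases with a median of -0.04 (-0.09 without Sirt2-/-/CE replicate 16 and -0.01 without Control replicate 1), and in wild type in 9 of 34 (median -0.19) and in knockout in 19 of 34 (median 0.04). Pdk4, the kinase that shuts the pyruvate dehydrogenase complex in fasting, had 1.30 to 6.12 CPM in unexposed mice and 2.55 to 10.2 CPM in exposed mice (0.82, standard error 0.31, edgeR adjusted p = 0.456, 10 of 10 mice above in log2 CPM). Apolipoproteins and lipoprotein assembly had 17 of 22 higher and a median of 0.10, which was 0.0018 without Sirt2-/-/CE replicate 16. Apof had 0.22 (standard error 0.10) and Scarb1, the receptor of high-density lipoprotein, 0.17 (standard error 0.11). Bile acid genes had a median of 0.05 with 16 of 29 higher, and of -0.0005 without Sirt2-/- replicate 14. The uptake transporter Slc10a1 had -0.22 (standard error 0.09, 9 of 10 mice below, edgeR adjusted p = 0.473) and the bile acid receptor Nr1h4 -0.29 (standard error 0.13).

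Gluconeogenesis and fasting regulators had 14 of 27 higher and a median of 0.02 (-0.05 without CE replicate 8 and 0.07 without Control replicate 3). Txnip, which curbs glucose uptake, had 32.6 to 351 CPM without cold and 16.6 to 46.0 CPM with it (-1.30, standard error 0.39, edgeR adjusted p = 0.361, DESeq2 adjusted p = 0.0479, limma voom adjusted p = 0.143), from -2.33 in wild type and -0.27 in knockout. Control replicate 3 held the 351 CPM, and without it the value was -0.87. Irs2, an insulin receptor substrate, had -1.50 (standard error 0.53), with 2.62 to 50.5 and 0.546 to 12.2 CPM. Glycolysis genes had 19 of 26 higher and a median of 0.13 (0.05 without CE replicate 6), with 0.10 in wild type and 0.25 in knockout. Slc2a2, the glucose carrier, had -0.50 (standard error 0.20), from -0.97 in wild type and -0.02 in knockout.

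Genes of the mitochondrion and the ribosome had small values for the cold term. Nuclear subunits of respiratory complexes were higher in 73 of 74 cases, with a median of 0.17 and 0 at an unadjusted p under 0.05. In wild type 11 of 74 were higher (median -0.08), and in knockout 74 of 74 (median 0.42). Atp5g1 of the ATP synthase had 0.37 (standard error 0.18), while a near-identical copy, Gm10039, had a mean of 34.1 CPM, so its counts are uncertain. Ndufa12 of complex I had 0.31 (standard error 0.16), and its counts are uncertain too, with the copy Gm15920 at a mean of 16.3 CPM. Cytosolic ribosomal proteins were higher in 68 of 75 cases with a median of 0.12, and in wild type 4 of 75 (median -0.15) and in knockout 75 of 75 (median 0.37). Rps12 had 0.33 (standard error 0.18) and Rpl38 0.30 (standard error 0.22), both with near-identical copies among the counted genes. Sirt2-/-/CE replicate 16 had the highest means of both lists, 0.84 and 1.00, followed by replicate 20 with 0.47 and 0.39. The other 3 Sirt2-/-/CE mice had -0.24 to -0.03 and -0.39 to -0.13, inside the ranges of the Sirt2-/- mice of -0.52 to 0.04 and -0.51 to 0.22. Without replicate 16 the medians for the cold term were 0.06 and -0.04. The same removal took Atp5g1 to 0.23, Rps12 to 0.19 and Rpl38 to 0.12. Its part was not tested beyond this. The 13 mitochondrially encoded genes had a median of 0.06 (0.0071 without Sirt2-/- replicate 14), with mt-Nd3 at 0.18 (standard error 0.13) and mt-Co2 at 0.13 (standard error 0.10), whose reads match nuclear copies. The TCA cycle and pyruvate dehydrogenase list had 20 of 30 higher and a median of 0.06 (0.0064 without Sirt2-/-/CE replicate 20), led by Idh3a at 0.36 (standard error 0.12, 9 of 10 mice above in log2 CPM, edgeR adjusted p = 0.393).

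Hormone and xenobiotic lists had medians near those of all genes. The thyroid hormone axis had 10 of 14 higher and a median of 0.10 (0.03 without Sirt2-/- replicate 15), and Slc16a10, which carries thyroid hormone and aromatic amino acids, had 68.7 to 142 and 98.3 to 221 CPM (0.50, standard error 0.15, edgeR adjusted p = 0.365, 9 of 10 mice above). Glucocorticoid-responsive genes had 13 of 21 higher (median 0.11, which was 0.44 without Control replicate 3 and 0.02 without CE replicate 8), with Tsc22d3 at 0.65 (standard error 0.36) and Gadd45g at -1.01 (standard error 0.67). Targets of CAR and PXR, the receptors for drugs and bile acids, had 11 of 21 higher (median 0.10, and -0.06 without Sirt2-/-/CE replicate 20). Gstm2, a glutathione transferase, had 17.3 to 57.4 and 17.5 to 134 CPM (0.93, standard error 0.28, edgeR adjusted p = 0.361), with 0.33 in wild type and 1.53 in knockout, and Cyp2c55 had 0.67 (standard error 0.36). Antioxidant genes had 13 of 26 higher (median 0.04, and -0.04 without Sirt2-/-/CE replicate 16). Nfe2l2, which encodes their activator Nrf2, had 40.5 to 69.4 CPM without cold and 37.0 to 53.6 CPM with it, a value of -0.31 (standard error 0.10, edgeR adjusted p = 0.38) and of -0.31 in each genotype, and its inhibitor Keap1 had 0.14 (standard error 0.08).

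Amino acid breakdown and urea cycle genes were higher in 25 of 36 cases with a median of 0.09. Slc25a15, the ornithine carrier of the urea cycle, had 178 to 445 CPM in unexposed and 360 to 462 CPM in exposed mice (0.39, standard error 0.12, edgeR adjusted p = 0.368, 10 of 10 mice above), and Glud1, glutamate dehydrogenase, had 743 to 983 and 881 to 1020 CPM (0.16, standard error 0.07, 10 of 10 mice above). Iron and heme genes had 10 of 21 higher and a median of -0.12, which was 0.06 without Control replicate 3. Bmp6, the signal of iron load, had -0.85 (standard error 0.29), from -1.58 in wild type and -0.14 in knockout (unadjusted p of the difference 0.0073, edgeR adjusted p = 0.45), and 224 of its 3900 exon bases are shared with Txndc5 on the other strand, which had a mean of 208 CPM. Ireb2 had -0.35 (standard error 0.17). Interferon-stimulated genes had 17 of 25 higher and a median of 0.07, which was 0.24 without Sirt2-/- replicate 11 and 0.04 without Sirt2-/- replicate 15. Bst2, tetherin, had 73.8 to 120 and 107 to 232 CPM (0.41, standard error 0.14, 10 of 10 mice above), while Psmb9, an immunoproteasome subunit, had -0.51 (standard error 0.16, 9 of 10 mice below). Matrix and stellate cell genes had 12 of 25 higher and a median of -0.03 (-0.14 without CE replicate 9 and 0.06 without Control replicate 3), with Des at -0.32 (standard error 0.19) and Tgfb1 at -0.36 (standard error 0.26, and -0.24 without CE replicate 8).

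Markers of other cell types were measured in the same libraries, and in bulk tissue fewer cells of a type and less RNA per cell cannot be told apart. Summed hepatocyte markers were 97400 to 200000 CPM in unexposed and 112000 to 190000 CPM in exposed mice. Endothelial markers were lower in 8 of 8 cases for the cold term (median -0.24), with summed levels of 91.8 to 391 and 55.1 to 428 CPM, from -0.66 in wild type and 0.16 in knockout. CE replicate 8 weighed on this, and without it the median was -0.11. Kupffer cell and leukocyte markers had 7 of 18 higher (median -0.18, and -0.07 without Control replicate 3), with 196 to 541 and 158 to 617 CPM. For the cell cycle list, which immune cells also express, the part of these markers was not tested. Erythrocyte markers had summed levels of 127 to 554 and 200 to 850 CPM, cholangiocyte markers of 28.5 to 76.8 and 23.5 to 66.1 CPM and markers of gallbladder and intestine of 10.5 to 46.5 and 25 to 77.6 CPM. The 2 tested markers of pancreas acinar cells summed to 5.38 to 19.4 CPM over all mice, with Prss1 at 0, and the 1 tested marker of skeletal muscle had 0.241 to 0.999 CPM, with Ckm and Tnnc2 at 0. Of 8 adipose markers Plin1, Lep, Retn and Ucp1 had 0 counts in all mice, and Adipoq and Cfd were below the filter. The other two, Car3 and Fabp4, which are also expressed outside fat, summed to 57.5 to 4230 CPM in unexposed and 204 to 2630 CPM in exposed mice, with medians of -0.60 in wild type and 0.92 in knockout.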

How the data were processed

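Liver RNA of 20 mice was sequenced, 1 library per mouse, after oligo(dT) enrichment. The authors deposited 1 table with raw read counts per gene and mouse, not normalized, and FPKM values (fragments scaled by the authors to gene length and depth). The build in the submitters' processing notes is mm10, and the aligner, the counter and its use of strand are not given in the sources used here. Of 45306 genes, 15616 passed edgeR's filterByExpr by group (minimum count 10, minimum total 15), which kept at least 99.94% of the counts of a library; 9 lines without a gene were left out. FPKM served only for the minimum of 1 FPKM.

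Counts were scaled by TMM in edgeR 4.0.16 (R 4.3.3) and fitted with genotype and cold as additive terms over all 20 libraries (common dispersion 0.152). Effects within a genotype and the interaction came from a fit of the 4 groups. Standard errors were derived from the F statistic. DESeq2 1.42.0, limma 3.58.1 (voom), other scalings, filters and terms and the removal of each mouse were tried, and the fits were tested on simulated data. CPM are TMM-scaled, list means use log2 CPM (prior count 2) centred per gene. Counts of exposed mice above or below the unexposed mean of their genotype compare log2 CPM, not CPM. The members, gene lists and tests were chosen with earlier results of these data known. Named genes were Sirt2, 3110082I17Rik, a set of liver genes, the 5 genes in each direction with the lowest p, a mean of at least 1 FPKM and the same sign in both genotypes, and the 2 members of each list with the lowest p; 11 further genes were added after their values were seen. Some genes that these rules name are not reported here. Positions and exon overlaps are from GENCODE vM21, near-identical copies from BLAST at 95% identity over at least 150 bases, and promoters from RefSeq.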

Additional observations from a re-analysis of the deposited data

Results flagged for a closer look

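In 27 of 222 groups of 10 mice (exposed or unexposed, for the named genes and list means in log2 CPM), the highest or lowest mouse had a gap to the next that took up more than 0.466 of the whole range. For 10 values of a single normal population chance gives about 1 in 20 such groups. Each group here pools wild-type and knockout mice, and many groups share mice and genes, so this rate is only a rough guide. The values are the gap over the range.

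Control replicate 3 was the mouse that stood apart in 10 of the unexposed groups. It was lowest for Wdr91 (0.538), Cyp7b1 (0.534), Dio1 (0.608), Idh3a (0.599) and Elovl3 (0.584). It was highest for Txnip (0.48) and for the means of immediate early genes (0.562), acute-phase proteins (0.643), CAR and PXR target genes (0.504) and iron and heme genes (0.473). Other unexposed mice that stood apart were Control replicate 4, lowest for Bmp6 (0.5), and Control replicate 5, highest for glycolysis (0.466). Sirt2-/- replicate 11 was highest for Ppargc1a (0.466) and replicate 12 lowest for Gadd45g (0.484). Sirt2-/- replicate 14 was lowest for Slc2a2 (0.473) and for the mitochondrially encoded genes (0.563).

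Among exposed mice, CE replicate 8 was highest for immediate early genes (0.514) and for gluconeogenesis and fasting regulators (0.562), and lowest for Cyp2c55 (0.558) and for matrix and stellate cell genes (0.542). CE replicate 10 was lowest for Klf4 (0.474). Sirt2-/-/CE replicate 16 was highest for Ahsa1 (0.487) and lowest for Ireb2 (0.589) and for the mitochondrially encoded genes (0.538). Sirt2-/-/CE replicate 20 was highest for Pklr (0.513) and Slc10a1 (0.472) and lowest for Elovl3 (0.478).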

How the results depend on the processing

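The count of 0 genes called for the cold term held with upper-quartile or library-size scaling, stricter or no filtering and the average of the effects within each genotype. It held with cold as the only term, with the clock score as covariate and without each mouse in turn. The same count was found without replicates 14 and 16, which lay apart from the other libraries, or 9, 14, 15 and 19, which had low clock scores (both chosen after seeing the data). An added minimum of 1 on the log2 fold change can only remove calls, so it could not change a count of 0. DESeq2 called 60 genes and limma voom with quality weights 5; the cause was not tested. Genes at an unadjusted p under 0.05 ranged from 1129 to 1506 over the removal of single mice, with 1379 for all mice. Without a filter there were 2294 of 25919 genes tested, and with at least 10 counts in every library 1185 of 12267. The interaction had 0 genes by edgeR and 41 by DESeq2, and over the removal of single mice it had 0 to 2, the latter without Control replicate 4. No paired analysis was possible because the replicate numbers run from 1 to 20 and no number is shared between groups. Of 83 named genes, 77 kept their sign under every setting. Fgf21 turned to -0.18 with limma voom and ranged from -0.40 to 0.26 over the removal of single mice, and Pkm ranged from -0.21 to 0.74. G6pc turned to 0.39 and Cyp7a1 to 0.12 with the clock score as covariate, and they ranged from -0.22 to 0.18 and from -0.35 to 0.0357 over single mice. Cpt1a turned to 0.10 with that covariate. Cyp7b1 had 0.0116 with limma voom and -0.30 to 0.0481 over single mice. The medians of 16 of 27 lists changed sign under some setting. Genes of few counts, such as Fgf21 and Plk1, had 0 counts in some mice.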
